A study of Rattus norvegicus with 13 samples.

Results

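Collagen genes, together with a set of matrix genes known from the meninges, were followed in the hypothalamus of rats raised on chow or on fructose. The members were all rows whose symbol is Col, a number, a, and a number, with Igf2, Fmod, Dcn, Lum, Ogn, Bgn, Fn1 and Aldh1a2 added by name. This rule matched 33 symbols on 35 of the 17366 rows of the table, and 31 symbols were above 0 in at least 1 rat, 24 collagens and 7 other genes. Col1a2 and Ogn were listed at 0 in all 13 rats on each of their 2 rows. In a table of this kind a listed 0 can be a failed estimate, so no level is given for them. Col7a1 stood only in a row joined with a microRNA gene, which the rule does not match.

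RNA was sequenced from the whole hypothalamus of 13 rats, separate animals housed in pairs. On postnatal day 25, after weaning, 7 were placed on the standard chow Lab Rodent Diet 5001, with 0.30% fructose, and 6 on the fructose diet D05111802, with 55% fructose. The rats were fasted over the night of day 79 and killed on day 80. In the study's larger cohort, rats received glucose into the peritoneum at a dose of 2 g per kg, or saline, and were decapitated 1 h later. The sources used here do not tell whether any of the 13 had glucose or saline, nor their sex, strain, cage or batch. Rats are called by diet and by a number in accession order that pairs nothing.

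Collagens are secreted proteins whose chains wind around each other in a long helix. Fibrillar collagens (here types I, II, III, V, XI and XXVII) build the fibres of connective tissue. Type IV builds the sheet of basement membranes, which in brain surround the vessels and line the surface. The remaining types include ones that decorate fibrils, form filaments, span membranes or, as type XV, lie in the basement membrane zone. In brain, fibres are made mostly by fibroblasts of the meninges and of vessel walls, and the tissue between neurons holds few of them. Decorin (Dcn), lumican (Lum), fibromodulin (Fmod) and biglycan (Bgn) are small leucine-rich proteoglycans that bind to collagen or its fibres. Fibronectin (Fn1) links matrix to cell receptors. Igf2, a growth factor, and Aldh1a2, an enzyme that makes retinoic acid, are both known from the meninges of the adult brain.

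Levels are given as FPKM, fragments scaled to transcript length and to the size of the library, which is a level per length and can be compared between genes. The members spanned a wide range. Col11a2, a chain of the fibrillar type XI, stood highest, with 72.1 ± 8.92 FPKM in the chow rats (SD, n = 7) and 81.1 ± 10.3 FPKM in the fructose rats (SD, n = 6). Its lowest rat, at 58.9 FPKM, lay above the highest rat of every other member, which was 45.2 FPKM for Igf2. Over all 13 rats Col16a1, a collagen found at the surface of fibrils, averaged 21.9 FPKM, Igf2 19.01 FPKM and Col9a2, of type IX, 17.2 FPKM. Col11a1, Col4a1, Col5a3, Col2a1 and Col5a2 followed between 14.6 and 10.1 FPKM, with ranges over rats that overlapped from each gene to the next. The genes best known from fibroblasts stood lower, with Dcn at 8.53 FPKM, Lum at 2.77 FPKM, Col3a1 at 2.105 FPKM and Col1a1 at 2.01 FPKM. Col14a1, Col8a1, Col6a4 and Col17a1 averaged 0.433, 0.419, 0.249 and 0.136 FPKM, below the minimum for testing, so 27 of the 31 members were tested. Each of these 4 had a higher mean on fructose, as Col8a1 with 0.307 ± 0.170 and 0.548 ± 0.120 FPKM (SD, n = 7 and 6), a difference given with no test.

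**Figure D1:**
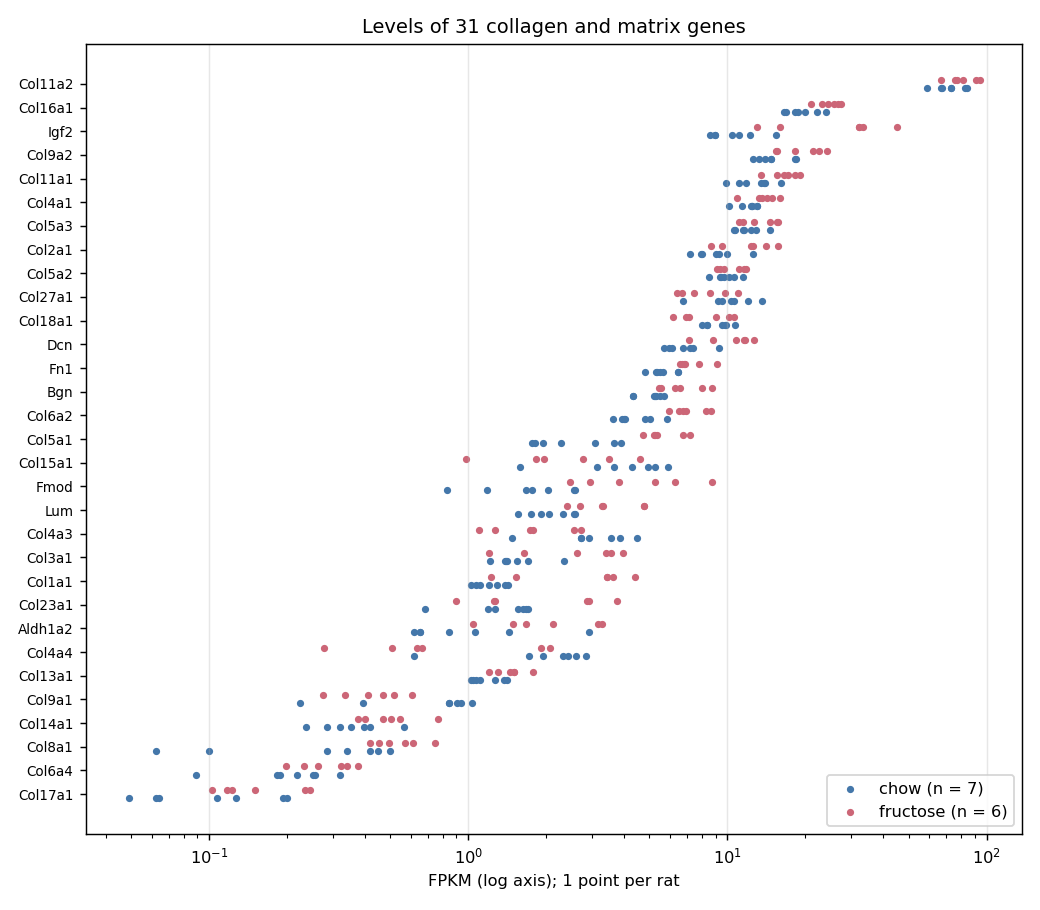
FPKM of the 31 members on a log axis, 1 point per rat, chow in blue (n = 7) and fructose in red (n = 6), ordered by the mean over 13 rats. Col11a2 stands alone at the top, with no rat below 58.9 FPKM, and 4 members average below 0.5 FPKM.

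The comparison of diets asked which of these transcripts differed in level with the diet the rats were raised on. Of the 27 tested members, 9 rose on fructose, none fell and 18 did not pass. Those that rose were the fibrillar chains Col5a1 and Col1a1, the other collagens Col6a2 and Col16a1, the proteoglycans Fmod, Lum and Dcn, and Igf2 and Fn1. The test was limma's, on log2(FPKM + 0.5), over the 11837 genes that averaged 0.5 FPKM or more, with Benjamini-Hochberg adjustment over all of them and an adjusted p under 0.05 called. Fold changes on this scale understate the change of low genes. Over all genes tested, 1.66% were called higher and 2.27% lower, against 33.3% and 0 of the members. With no adjustment, at a limma p under 0.05, 15 members were higher and 2 lower, where 8.59% and 10.6% of all genes stood. The median log2 fold change of the 27 members was 0.35, against 0.00085 over all genes tested. For 3 members, Col5a1, Col6a2 and Fn1, each of the 6 fructose rats was higher than each of the 7 chow rats, and for 0 members was each lower, against 0.879% and 0.727% of all genes. The members were chosen with earlier results of these data known, so these contrasts with all genes describe the set and do not test it. In bulk tissue a change in the number of cells that make a transcript and a change in the amount per cell cannot be told apart.

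The count of 9 depended on single rats. It came to 2 without fructose rat 4, to 3 without chow rat 2, chow rat 4 or fructose rat 6, to 4 without chow rat 3, chow rat 7 or fructose rat 3, and to 5 without chow rat 5 or fructose rat 2, or with no filter on low values. An exact permutation test of each gene ran over the 1716 ways of dividing 13 rats into 7 and 6. No member and no gene passed it after adjustment, with 18 members and 2223 genes at an unadjusted p under 0.05. By this test the p of a gene cannot fall below 0.000583, however far the diets stand apart. The smallest adjusted permutation p over all genes was 0.0663, so the lack of calls says little of the members.

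**Figure D2:**
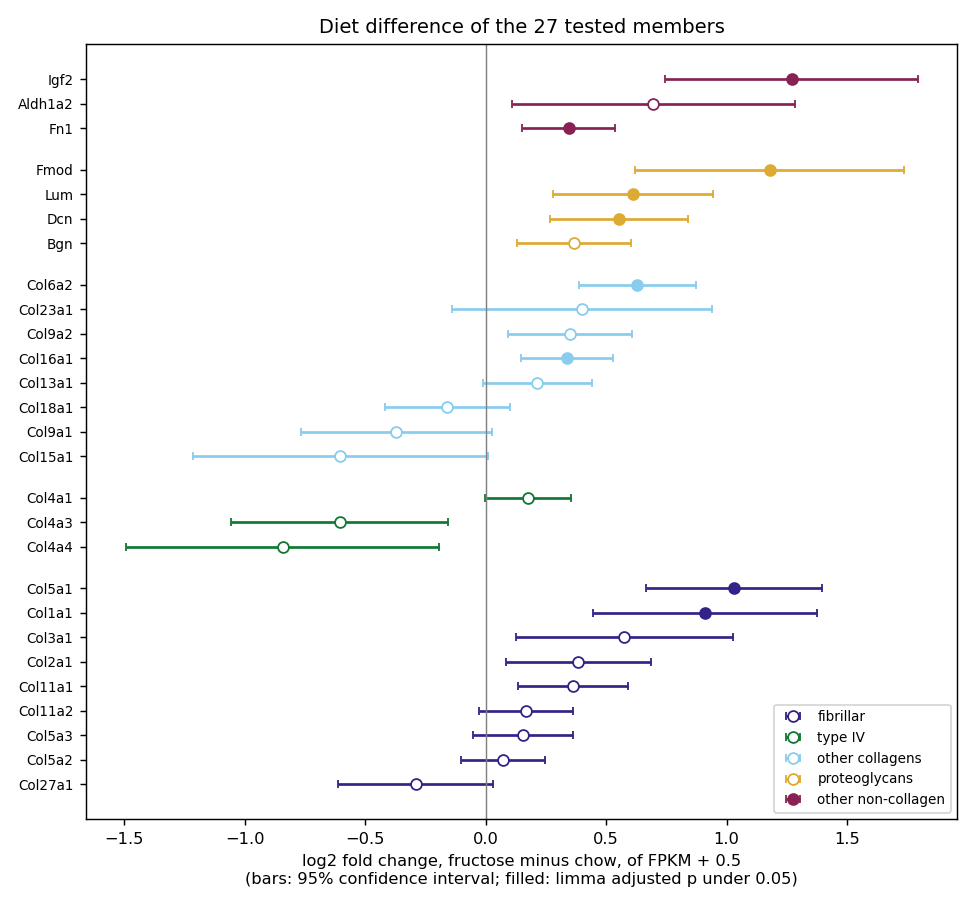
Log2 fold change of FPKM + 0.5, fructose minus chow, for the 27 tested members by class, with 95% confidence intervals from limma. Filled points mark the 9 members with an adjusted p under 0.05, all to the right of 0, and Col4a3 and Col4a4 lie farthest to the left.

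Of the 9 fibrillar collagens tested, 2 rose, Col5a1 and Col1a1, and 7 did not pass. Col5a1 encodes a chain of type V, a minor collagen found inside type I fibrils. Its lowest, median and highest chow rats were at 1.75, 2.28 and 3.89 FPKM, and its fructose rats at 4.74, 5.30 and 7.20 FPKM. The diets did not overlap, and fructose rat 2, the lowest of its diet at 4.74 FPKM, stood next to chow rat 5, the highest of its own. The log2 fold change was 1.03 ± 0.17 (SE, limma adjusted p = 0.00874), and it passed in all 13 fits with 1 rat left out.

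The main chain of the fibres, Col1a1 of type I, behaved otherwise. The 7 chow rats were narrowly grouped, from 1.02 to 1.42 FPKM with a median of 1.20. Fructose rats 1, 3, 4 and 6 stood at 4.41, 3.62, 3.44 and 3.42 FPKM, and fructose rats 2 and 5 at 1.22 and 1.52 FPKM. So 4 fructose rats were far above chow, 1 was just above it and 1 lay inside the chow range. Its log2 fold change was 0.91 ± 0.22 (SE, limma adjusted p = 0.0366), and it passed with 1 rat left out only without chow rat 1, fructose rat 2 or fructose rat 5, with adjusted p between 0.0142 and 0.0924 over the 13 fits. Col1a2, the partner chain of Col1a1, could not be compared because it was listed at 0.

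Col3a1, of type III, which accompanies type I in soft tissue, had the same rats high and low but did not pass (0.58 ± 0.21, limma adjusted p = 0.145). Its chow rats ran from 1.22 to 2.33 FPKM with a median of 1.41. Fructose rats 1, 3, 4 and 6 were at 3.39, 2.62, 3.56 and 3.97 FPKM, all above every chow rat. Fructose rat 5 was at 1.64 FPKM, within the chow range, and fructose rat 2 at 1.20 FPKM, just below the lowest chow rat.

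The partners of Col5a1 in type V did not pass. Col5a2 averaged 9.89 ± 0.964 FPKM in the chow rats (SD, n = 7) and 10.4 ± 1.17 FPKM in the fructose rats (SD, n = 6), and the 95% interval of its log2 fold change ran from -0.10 to 0.25. Col5a3 was at 12.04 ± 1.42 and 13.5 ± 2.03 FPKM (interval -0.05 to 0.36). Both intervals end below that of Col5a1, which ran from 0.67 to 1.40, though the differences between chains were not themselves tested. Col5a2 and Col3a1 are next to each other in the RefSeq annotation (assembly GRCr8).

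The cartilage-type fibrillar chains Col11a1, Col2a1 and Col11a2 also did not pass. Col11a1 stood at 12.9 ± 2.11 FPKM on chow and 16.6 ± 1.99 FPKM on fructose (0.36 ± 0.11, limma adjusted p = 0.0698), with 6 of 6 fructose rats above the mean of chow, and passed without chow rat 6 (0.0394) or fructose rat 1 (0.0430) and with array weights (0.0187). Col2a1 was at 9.12 ± 1.77 and 12.1 ± 2.68 FPKM (0.38 ± 0.14, adjusted p = 0.146), and passed without chow rat 1 (0.0490) and with array weights (0.0273). Chow rat 1 had the highest chow value of Col2a1, 12.5 FPKM, against a chow median of 9.05 FPKM. Col11a2 differed by 0.17 ± 0.09 (adjusted p = 0.338). Col27a1 was the fibrillar member with a lower mean on fructose, 8.31 ± 1.82 against 10.3 ± 2.19 FPKM (-0.29 ± 0.15, adjusted p = 0.316).

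**Figure D3:**
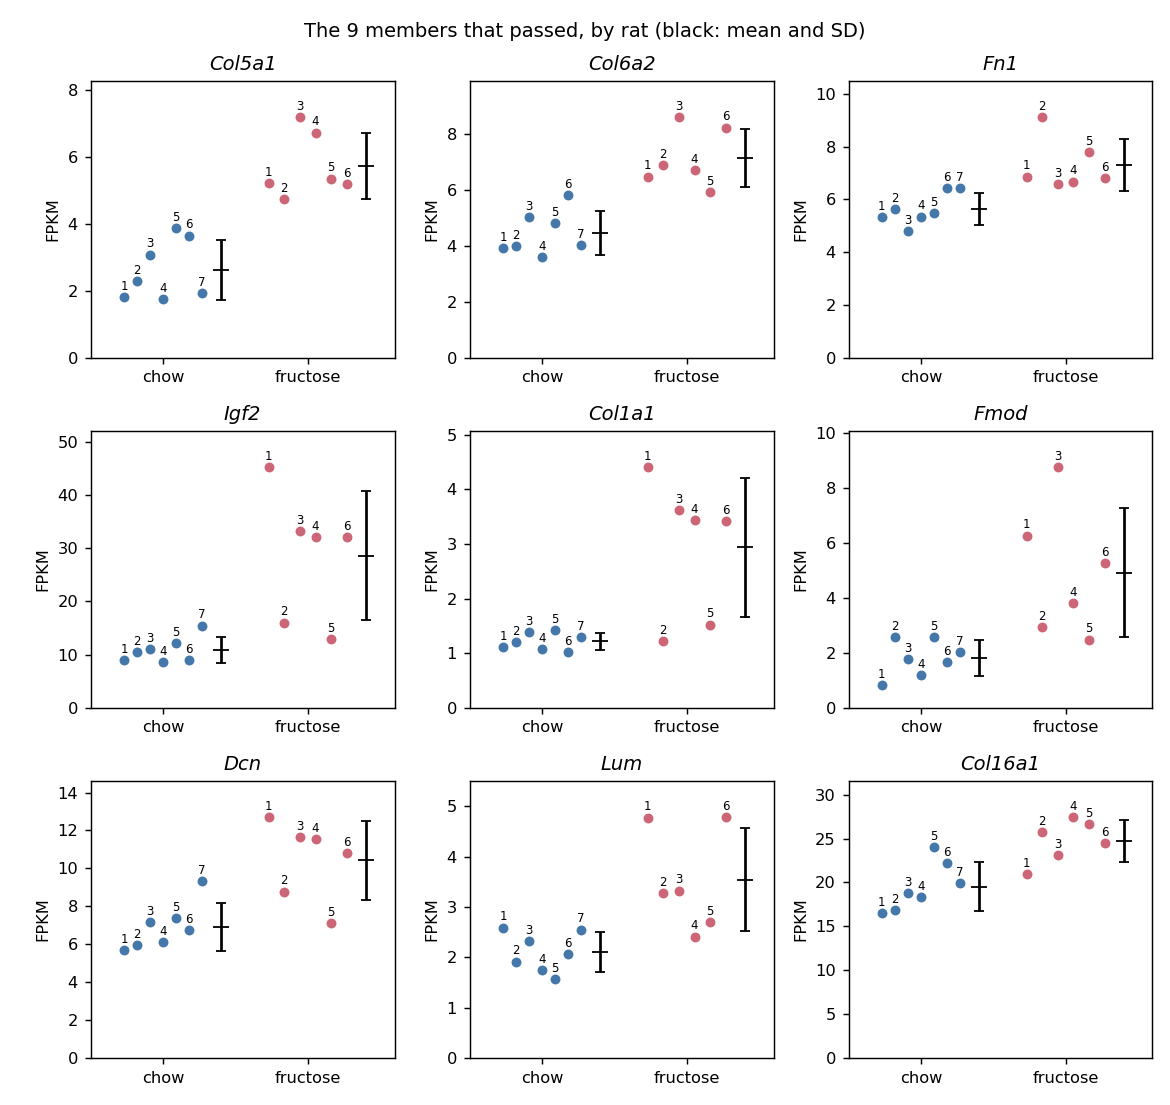
FPKM of the 9 members that passed, 1 point per rat labelled with its number, chow in blue and fructose in red, with mean and SD in black. Fructose rats 2 and 5 are the lowest fructose rats of Igf2, Col1a1, Fmod and Dcn, whereas for Col5a1, Col6a2 and Fn1 the diets do not overlap.

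Of the non-collagen members, 5 of 7 rose and 2, Bgn and Aldh1a2, did not pass. Igf2 had the largest log2 fold change of the 27, 1.27 ± 0.25 (SE, limma adjusted p = 0.0196). Its chow rats lay between 8.53 and 15.5 FPKM with a median of 10.4. Fructose rats 1, 3, 4 and 6 were at 45.2, 33.3, 32.1 and 32.1 FPKM, and fructose rats 2 and 5 at 16.0 and 12.95 FPKM. The former rats stood at more than 2 times the highest chow rat, and the latter just above or inside the chow range. Igf2 lost its call without fructose rat 4 alone (adjusted p = 0.0542).

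The proteoglycans Fmod, Dcn and Lum rose, by 1.18 ± 0.26, 0.55 ± 0.13 and 0.61 ± 0.16 on the log2 scale (SE, limma adjusted p = 0.0296, 0.0379 and 0.0422). Fmod had chow rats from 0.829 to 2.57 FPKM and fructose rats from 2.48 to 8.75 FPKM, with medians of 1.77 and 4.54. Dcn had chow rats from 5.67 to 9.32 FPKM and fructose rats from 7.11 to 12.7 FPKM, with medians of 6.75 and 11.2. Lum had chow rats from 1.56 to 2.59 FPKM and fructose rats from 2.41 to 4.78 FPKM, with medians of 2.06 and 3.30. Each of these genes overlapped between diets. For Fmod and Lum 5 of 6 fructose rats lay above all chow rats, and for Dcn 4 of 6. The rat inside the chow range was fructose rat 5 for Fmod, fructose rat 4 for Lum, and fructose rats 2 and 5 for Dcn.

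Dcn and Lum lie next to each other in the RefSeq annotation (GRCr8). Bgn, the close relative of Dcn, was at 5.09 ± 0.547 FPKM on chow and 6.76 ± 1.33 FPKM on fructose and did not pass (0.37 ± 0.11, limma adjusted p = 0.0771), with 4 of 6 fructose rats above all chow rats. With 1 rat left out, Fmod lost its call without chow rat 2, 4 or 7 or fructose rat 4 or 6 (highest adjusted p 0.0741). Dcn passed only without chow rat 1, 6 or 7 or fructose rat 5, and Lum only without chow rat 1 or fructose rat 5 (highest adjusted p 0.0911 and 0.0982). With no filter Dcn and Lum did not pass, nor did Lum with quantile normalization.

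Fn1 rose by less, with no overlap between diets. The chow rats were between 4.80 and 6.42 FPKM and the fructose rats between 6.58 and 9.12 FPKM, with medians of 5.49 and 6.84 (0.35 ± 0.09 on the log2 scale, SE, limma adjusted p = 0.0469). Its order of rats was another: fructose rats 2 and 5, low for Igf2 and Col1a1, were the highest for Fn1, at 9.12 and 7.79 FPKM. It passed with 1 rat left out only without chow rat 1 or 6 (highest adjusted p 0.102), and not with no filter or with quantile normalization.

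Aldh1a2 did not pass (0.70 ± 0.28, limma adjusted p = 0.177). It stood at 1.17 ± 0.831 FPKM on chow and 2.13 ± 0.921 FPKM on fructose. Chow rat 7, at 2.93 FPKM, was far above the next chow rat, at 1.43 FPKM, and close to the highest fructose rats, 1 and 6, at 3.29 and 3.16 FPKM. Chow rat 7 was also the highest chow rat for Igf2 (15.5 FPKM), Dcn (9.32 FPKM) and Col3a1 (2.33 FPKM).

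Of the 8 other collagens tested, 2 rose and 6 did not pass. Col6a2, a chain of type VI, which forms beaded filaments around cells and fibres, had chow rats from 3.60 to 5.82 FPKM and fructose rats from 5.93 to 8.61 FPKM, with medians of 4.03 and 6.82. The diets did not overlap, though chow rat 6 and fructose rat 5 lay next to each other. It rose by 0.63 ± 0.11 on the log2 scale (SE, limma adjusted p = 0.0143), and passed in all 13 fits with 1 rat left out.

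Col16a1 had chow rats from 16.5 to 24.0 FPKM and fructose rats from 20.9 to 27.4 FPKM, with medians of 18.7 and 25.1 (0.34 ± 0.09, limma adjusted p = 0.0494). It passed with 1 rat left out only without chow rat 5, chow rat 6 or fructose rat 1 (highest adjusted p 0.115), and not with no filter or a pseudocount of 0.1. Col9a2, a fibril-associated collagen of type IX, was at 15.1 ± 2.297 and 19.5 ± 3.73 FPKM and did not pass (0.35 ± 0.12, adjusted p = 0.118). The membrane-spanning Col13a1 and Col23a1 differed by 0.21 ± 0.11 and 0.40 ± 0.25 (adjusted p = 0.291 and 0.423). Col18a1, Col9a1 and Col15a1 had lower means on fructose, by -0.16 ± 0.12, -0.37 ± 0.19 and -0.60 ± 0.29 on the log2 scale (adjusted p = 0.523, 0.296 and 0.269).

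The bases before the annotated starts of called members are printed here because these genes were each called higher on fructose. They are the 250 bases upstream in RefSeq, assembly GRCr8, 5′ to 3′ on the gene's strand, for the 5 of 9 called members with an entry. For Igf2, which had 2 entries, the one holding a match is shown. Capitals mark the letters CCAAT or ATTGG (the CCAAT box on either strand) and GGGCGG or CCGCCC (the GC box on either strand), which do not overlap each other in these windows.
Col5a1 (chr3:31606630-31606879, plus strand): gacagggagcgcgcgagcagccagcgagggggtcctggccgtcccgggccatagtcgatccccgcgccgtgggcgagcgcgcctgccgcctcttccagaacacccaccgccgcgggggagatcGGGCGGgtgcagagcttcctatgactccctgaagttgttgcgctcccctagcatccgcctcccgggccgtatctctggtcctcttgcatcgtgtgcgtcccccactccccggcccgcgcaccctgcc
Col16a1 (chr5:147672846-147673095, plus strand): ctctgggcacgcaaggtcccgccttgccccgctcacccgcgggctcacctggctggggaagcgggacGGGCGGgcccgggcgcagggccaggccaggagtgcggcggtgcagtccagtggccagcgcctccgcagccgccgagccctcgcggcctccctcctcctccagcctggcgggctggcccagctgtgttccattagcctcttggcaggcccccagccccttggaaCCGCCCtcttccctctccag
Igf2 (chr1:207250476-207250725, minus strand): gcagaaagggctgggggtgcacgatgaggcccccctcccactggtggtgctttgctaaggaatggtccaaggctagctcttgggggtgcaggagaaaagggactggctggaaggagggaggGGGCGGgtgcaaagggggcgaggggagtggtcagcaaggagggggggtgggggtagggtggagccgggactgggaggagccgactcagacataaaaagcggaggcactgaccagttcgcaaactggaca
Fmod (chr13:48045317-48045566, plus strand): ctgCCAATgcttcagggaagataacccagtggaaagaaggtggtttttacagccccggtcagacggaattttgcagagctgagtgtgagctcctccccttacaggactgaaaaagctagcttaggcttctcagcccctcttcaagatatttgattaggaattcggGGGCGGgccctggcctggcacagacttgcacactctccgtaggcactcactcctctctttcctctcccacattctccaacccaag
Lum (chr7:34245456-34245705, plus strand): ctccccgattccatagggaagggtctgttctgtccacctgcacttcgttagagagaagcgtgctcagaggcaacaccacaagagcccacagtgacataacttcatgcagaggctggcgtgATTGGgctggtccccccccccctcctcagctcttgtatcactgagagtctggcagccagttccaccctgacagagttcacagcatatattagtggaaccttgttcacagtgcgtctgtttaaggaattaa
The printed Igf2 window was picked because it holds a match, so no share is given over these windows. Of the 24 windows of members (23 genes), 13 held GC box letters (54.2%) and 8 CCAAT letters (33.3%), against 30.5% and 34.0% of all 33469 windows of this length. TATAAA or TTTATA (the TATA box on either strand) stood in 2 of the 24 (8.33%), none of them printed here, against 12.9% of all. The median GC content was 62.2% in the members' windows and 51.2% in all, and GC-rich windows hold GC box letters more readily. A match is a description of the letters and not a measured binding site.

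Of the 3 type IV chains in the table, none passed by limma, and 2, Col4a3 and Col4a4, had an unadjusted p under 0.05, both lower on fructose. Col4a1, the chain of common basement membranes, was at 12.1 ± 1.04 FPKM on chow and 13.8 ± 1.71 FPKM on fructose (0.18 ± 0.08, limma adjusted p = 0.267), with 5 of 6 fructose rats above all chow rats and fructose rat 1, at 10.9 FPKM, low among the chow rats. Col4a3 and Col4a4, chains of the specialised basement membrane known best from kidney, had opposite signs to it. Col4a3 ran from 1.47 to 4.47 FPKM on chow and from 1.10 to 2.72 FPKM on fructose (-0.61 ± 0.21, limma adjusted p = 0.123). Col4a4 ran from 0.619 to 2.84 FPKM on chow and from 0.276 to 2.07 FPKM on fructose (-0.84 ± 0.31, limma adjusted p = 0.139). Both passed without chow rat 1 (adjusted p = 0.0250 and 0.0333), which was the lowest chow rat for each.

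Col4a3 and Col4a4 are neighbours that are read in opposite directions from starts that lie 412 bases apart in RefSeq (GRCr8). Their 250-base upstream windows share 88 bases, shown in capitals, each on its own gene's strand, so that one capital stretch is the reverse complement of the other.
Col4a3 (chr9:91323740-91323989, plus strand): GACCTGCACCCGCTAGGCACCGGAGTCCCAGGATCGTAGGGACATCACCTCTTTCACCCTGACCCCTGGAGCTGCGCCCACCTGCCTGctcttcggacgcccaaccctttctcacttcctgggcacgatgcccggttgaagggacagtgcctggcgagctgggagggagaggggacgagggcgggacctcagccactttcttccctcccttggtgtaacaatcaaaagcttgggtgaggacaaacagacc
Col4a4 (chr9:91323578-91323827, minus strand): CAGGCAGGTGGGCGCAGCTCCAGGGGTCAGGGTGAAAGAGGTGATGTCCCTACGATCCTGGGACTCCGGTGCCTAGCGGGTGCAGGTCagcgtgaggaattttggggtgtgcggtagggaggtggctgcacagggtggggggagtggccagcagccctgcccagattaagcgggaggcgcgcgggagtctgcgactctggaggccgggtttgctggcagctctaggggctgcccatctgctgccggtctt
The rats fell into 2 separate clusters on this pair, on either side of a Col4a4 level of 1 FPKM, a division seen in the values. In 5 rats, chow rat 1 and fructose rats 1, 2, 4 and 6, Col4a4 lay between 0.276 and 0.661 FPKM and Col4a3 between 1.10 and 1.78 FPKM. In the other 8 rats, 6 on chow and 2 on fructose, Col4a4 lay between 1.72 and 2.84 FPKM and Col4a3 between 2.55 and 4.47 FPKM. Over all 13 rats Pearson r was 0.92 and Spearman rho 0.80 (permutation p adjusted over the 5 pairs computed, 0.0002 and 0.0082). Separate clusters can by themselves give such a correlation, so it does not tell how the 2 genes go together within a cluster. The cut on Col4a4 also narrows the range of that gene within the 8 rats, which can lower a correlation among them. Within the 8 rats, Pearson r was 0.49 (exact permutation p = 0.215) and Spearman rho 0.24 (exact permutation p = 0.582), and r was 0.27 over the 6 left without the 2 rats farthest from the median.

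Markers of the thalamus, a neighbouring region, also differed between the diets. Of 12 thalamus markers, all above 0, 7 fell and 1 rose. The marker that rose, Calb2, had the highest mean of the 12 on each diet. It averaged 270 ± 51.6 FPKM on chow and 382 ± 41.4 FPKM on fructose, so it weighs heavily in the sum and against the others. The summed level of the 12 ran from 644 to 1301 FPKM on chow, lowest in chow rat 1. On fructose it ran from 576 to 923 FPKM, highest in fructose rats 5 and 3 (923 and 827 FPKM). These were the rats of that diet with the high levels of Col4a4 (2.07 and 1.91 FPKM). Col15a1, a collagen of the basement membrane zone, showed a like order, with chow rat 1 at 1.58 FPKM against a chow median of 4.29 FPKM, and fructose rats 5 and 3 highest of their diet at 4.61 and 3.48 FPKM. Fructose rat 1 went against this order: its thalamus sum of 782 FPKM was above that of chow rat 1, and its levels of Col4a3 and Col4a4 were the lowest of all 13 rats, at 1.10 and 0.276 FPKM. The part of the thalamus markers in these values was not tested.

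**Figure D4:**
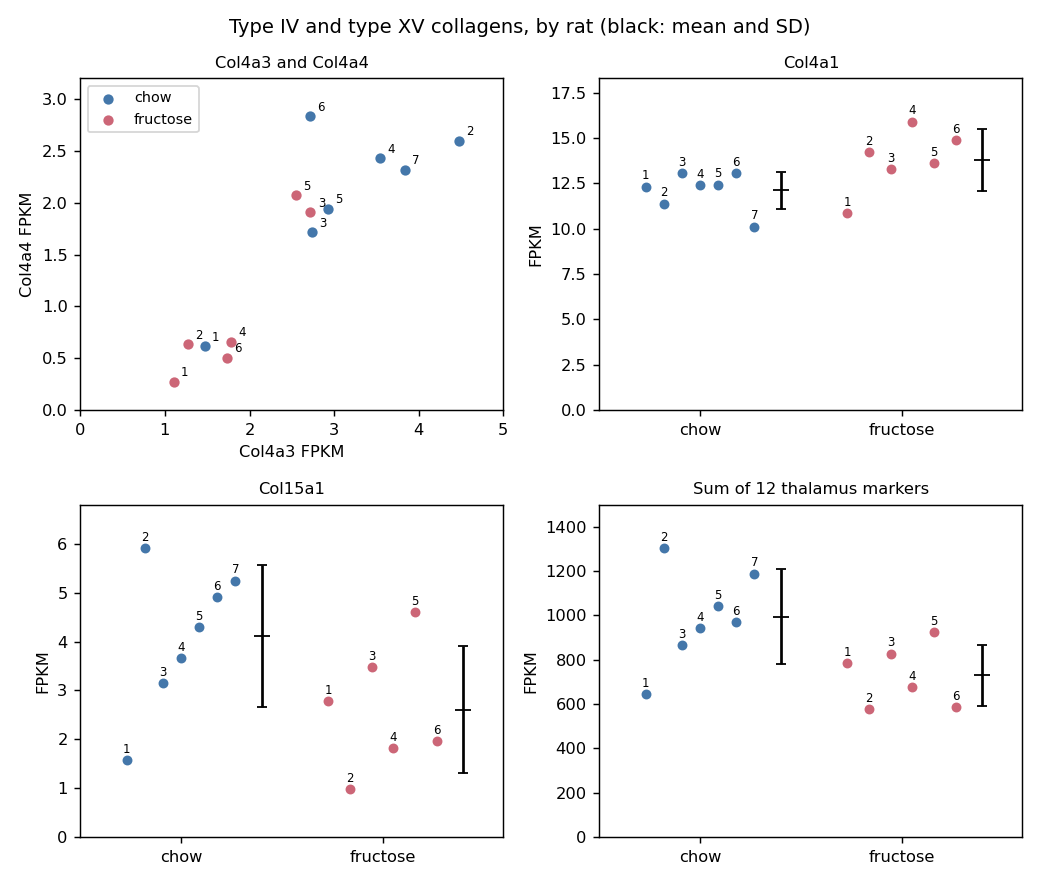
Top left, FPKM of Col4a4 against Col4a3, 1 point per rat with its number, where chow rat 1 sits with fructose rats 1, 2, 4 and 6 at up to 0.661 FPKM of Col4a4. The other panels give Col4a1, Col15a1 and the summed FPKM of 12 thalamus markers by rat, with mean and SD in black, and chow rat 1 is the lowest chow rat for Col15a1 and for the sum.

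For 4 other pairs of chains of the same collagen type, no correlation across rats passed. Over 13 rats, Pearson r was 0.45 for Col5a1 with Col5a2, 0.33 for Col5a1 with Col5a3, 0.42 for Col11a1 with Col11a2 and -0.39 for Col9a1 with Col9a2 (permutation p = 0.122, 0.270, 0.158 and 0.180). Spearman rho was 0.51, 0.16, 0.53 and -0.43 (permutation p = 0.0775, 0.606, 0.0672 and 0.147). Adjusted over the 5 pairs computed, the smallest p of these 4 was 0.225 for Pearson r and 0.129 for Spearman rho. Without the 2 rats farthest from the median, r was 0.18, 0.29, 0.73 and -0.26.

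Other genes of the pathway were read from lists set beside the members. Of the enzymes and chaperones that build collagen, 21 were tested and 0 passed by limma, with 5 below an unadjusted p of 0.05, 3 of them higher. The smallest p was that of Lox, lysyl oxidase, which cross-links collagen, at 1.32 ± 0.759 FPKM on chow and 0.335 ± 0.287 FPKM on fructose (-1.06 ± 0.32, limma adjusted p = 0.0725). Adamts2, which trims procollagen, and Plod1, a lysyl hydroxylase, differed by 0.41 ± 0.15 and 0.15 ± 0.06 (adjusted p = 0.146 and 0.177). Of the basement membrane partners 0 of 10 passed, with 2 higher at an unadjusted p under 0.05, Nid2 and Lamb2 (0.26 ± 0.11 and 0.16 ± 0.07). Of the collagen receptors 0 of 4 passed, with 1 higher at that level, Ddr2 (0.33 ± 0.15), and of the remaining small leucine-rich proteoglycans 0 of 3 passed, with 1 lower, Chad (-0.56 ± 0.24). No gene passed by the exact permutation test in any list, as that test passed no gene of the whole table.

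Among 10 matrix proteases and inhibitors, 1 rose. Timp1, an inhibitor of matrix proteases, was at 2.69 ± 0.632 FPKM on chow and 4.76 ± 1.25 FPKM on fructose (0.71 ± 0.16, limma adjusted p = 0.0314). Among 9 partners of Igf2, 1 fell, Igf1, the related growth factor, from 3.52 ± 0.509 to 2.53 ± 0.293 FPKM (-0.41 ± 0.10, limma adjusted p = 0.0394). The binding proteins Igfbp7 and Igfbp6 were at 0.26 ± 0.08 and 0.58 ± 0.19 (adjusted p = 0.0725 and 0.0979). Among 9 partners of Aldh1a2 in retinoic acid metabolism, 1 rose, Aldh1a1, from 32.2 ± 4.74 to 76.4 ± 19.1 FPKM (1.22 ± 0.14, limma adjusted p = 0.000381), with no overlap. Aldh1a1 is also a marker of midbrain dopamine neurons and stands in that list too.

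The label of the gene set was compared with markers of meningeal fibroblasts that are not members. Of 20 such markers 19 were in the table and all 19 were above 0 in at least 1 rat. By limma 0 of 14 tested passed, and 5 reached an unadjusted p below 0.05, all 5 higher on fructose. Their median log2 fold change was 0.31. The nearest to passing was Serpinf1, a secreted serpin, at 1.25 ± 0.434 and 2.60 ± 1.03 FPKM (0.79 ± 0.23, limma adjusted p = 0.0727). Slc6a13, a transporter of meningeal fibroblasts, was at 2.65 ± 0.249 FPKM on chow and 3.72 ± 1.25 FPKM on fructose (0.36 ± 0.18, adjusted p = 0.290).

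The summed level of these 19 markers rests largely on Mgp and Pdgfra. Which cells these 2 transcripts came from was not measured, so the sum is not a measure of meningeal fibroblasts alone. Mgp was at 33.8 ± 5.78 FPKM on chow and 43.4 ± 5.56 FPKM on fructose, and Pdgfra at 14.0 ± 1.03 and 14.9 ± 0.748 FPKM. The sum ran from 74.2 to 91.0 FPKM on chow. On fructose it was 100.1, 105.6, 116 and 105.4 FPKM in rats 1, 3, 4 and 6, and 79.7 and 87.5 FPKM in rats 2 and 5. These are the rats that were high and low for Igf2, Col1a1 and Col3a1. For Col5a1 and Col6a2, by contrast, fructose rats 2 and 5 lay above every chow rat. Across the 9 members that rose, fructose rats 2 and 5 were the lowest pair of their diet in 4, and fructose rat 6 lay above all chow rats in 9. This order of rats was not particular to the meningeal list. Among the marker lists read below, fructose rats 2 and 5 were also lowest of their diet for smooth muscle and for pericytes. Their smooth muscle sums were 57.9 and 66.9 FPKM, against 75.2 to 88.6 FPKM in the other fructose rats. Their pericyte sums were 80.6 and 85.6 FPKM, against 93.3 to 113 FPKM. The endothelial sums differed, at 261 FPKM in fructose rat 2 and 308 FPKM in fructose rat 5. The part of meningeal or vessel cells in these values was not tested.

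**Figure D5:**
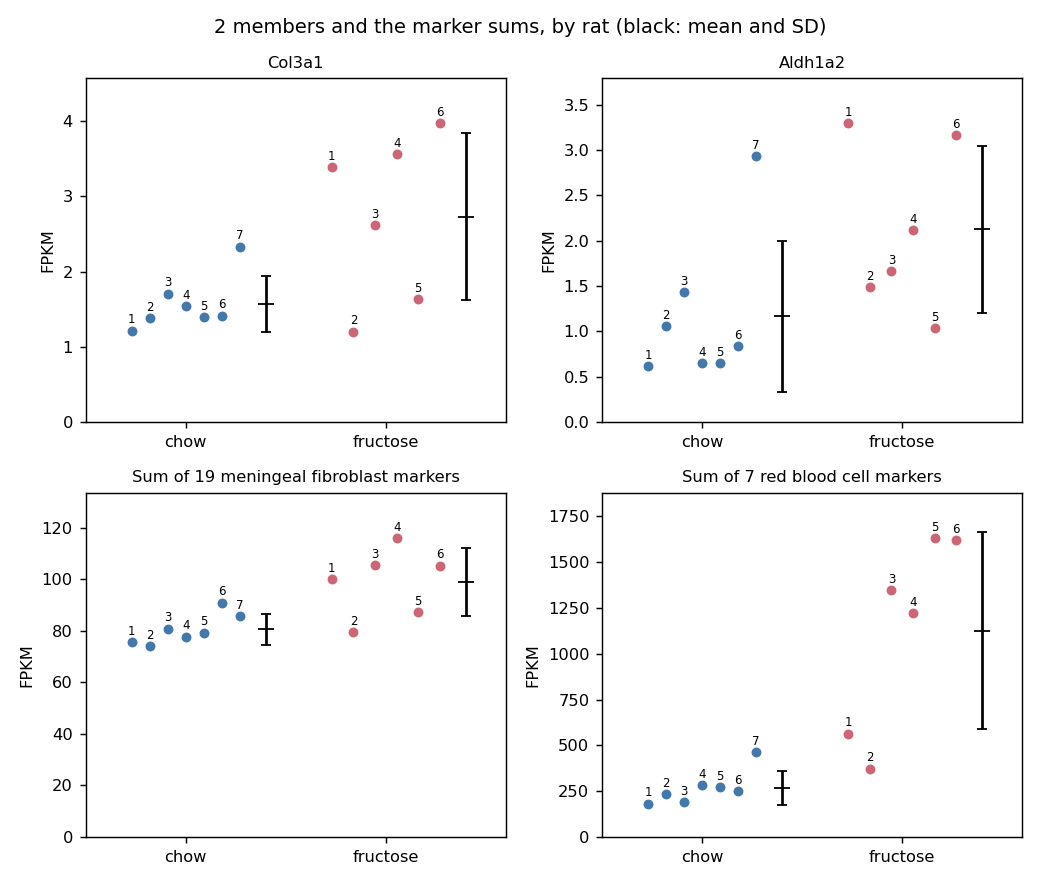
FPKM of Col3a1 and Aldh1a2, and summed FPKM of 19 meningeal fibroblast markers and 7 red blood cell markers, 1 point per rat with its number, with mean and SD in black. Fructose rats 2 and 5 lie at or near the chow rats for Col3a1 and for the meningeal sum, while fructose rat 5 has the highest red blood cell sum, 1632 FPKM.

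Other marker lists were read for the same rats. Red blood cell markers differed, with 4 of 5 tested higher and sums of 182 to 463 FPKM on chow and 373 to 1632 FPKM on fructose, all 7 above 0. Fructose rats 3, 4 and 6, high for Igf2, had high sums, at 1348, 1220 and 1619 FPKM, fructose rat 2, low for Igf2, had the lowest sum of its diet, and chow rat 7, the highest chow rat for Igf2, had the highest chow sum. Fructose rat 5, low for Igf2, had the highest sum of all, and fructose rat 1, highest for Igf2, had 564 FPKM. Of 13 endothelial, 9 pericyte and 7 smooth muscle markers tested, 0 passed by limma in each list, with 4, 2 and 2 at an unadjusted p under 0.05, all higher. The endothelial sum was 253 to 287 FPKM on chow and 261 to 314 FPKM on fructose, the pericyte sum 92.3 to 98.5 and 80.6 to 113 FPKM, and the smooth muscle sum 49.1 to 76.3 and 57.9 to 88.6 FPKM. Of 5 choroid plexus markers tested 0 passed, with 1 lower at that level, and Otx2, a defining factor, was listed at 0. Pituitary hormones gave 0 of 4, with 0 at that level and Prl, Fshb and Pou1f1 listed at 0. Crtap, a collagen-modifying protein that many cells make, was listed at 0 as well, so these zeros may be failed estimates and say nothing of choroid plexus or pituitary tissue. Their part in the members' values was not tested.

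As for the samples as a whole, total FPKM ran from 556902 to 608058 per rat. All 18 defining markers of the hypothalamus were above 0, and limma called 0 of 18, with 2 below 0.05 before adjustment. Their levels varied widely between rats, with sums of 4250 to 9908 FPKM on chow and 1693 to 7391 FPKM on fructose. Pmch had the highest mean of the 18 on each diet and weighs most in the sum. Oxt ran from 2.04 to 1455 FPKM over all rats. With such a spread, the lack of calls does not show that these levels were alike. Markers of midbrain dopamine neurons were higher in 10 of 10 tested, with sums of 68.5 to 99.4 FPKM on chow and 184 to 550 FPKM on fructose. So markers of both neighbouring regions and of blood differed between the diets alongside the matrix genes, and their part in these differences was not tested.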

How the data were processed

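The authors deposited FPKM in a table with a column for each rat. The submitters' processing notes name STAR 2.3.0e, Cufflinks 2.1.1, Cuffdiff and build rn5, and the sources used here do not give settings or scaling. Libraries came from 1 µg of RNA, per the labels' protocols.

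Members and lists were chosen with earlier results of these data known. Of several rows with 1 symbol, that with the highest mean was used. Log2(FPKM + 0.5) was tested with limma 3.58.1 in R 4.3.3 (intensity trend, two-sided, no covariate). On simulated data with 200 of 11837 genes changed 2-fold, this procedure recovered 96% of those, and 6.34% of its calls were wrong. Smaller changes, and differences that many genes share within a rat, were not simulated. Named in detail are members that passed, the highest of each class and up to 3 genes of smallest p per pathway list. Other names, and 4 of the 5 collagen pairs (100000 resamples), were chosen after values were seen.

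Depth in reads is unknown, so precision rests on the spread between rats, and p-values weigh the diet difference against that spread. The tests treat all rats as independent, which rats of a shared cage may not be. The sample titles carry lower leading numbers for all chow rats than for all fructose rats, and their meaning is not given. Any order that they stand for cannot be told apart from diet. From steps between low values, 1 read was worth 0.866 to 1.23 times its value in chow rat 1, as a rough guide. No columns were identical (Pearson r across genes 0.987 to 0.996). Promoter letters are from RefSeq (GRCr8), and 8 of 31 members had no entry.

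Alternatives: pseudocounts of 0.1 and 1, no filter or a minimum mean of 2 FPKM, scaling by quantiles or by median ratios, array weights, robust empirical Bayes, exact permutation, and 1 rat left out in turn.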

Additional observations from a re-analysis of the deposited data

Results flagged for a closer look

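In 54 groups of values (27 members in 2 diets), 1 rat stood apart from its group by the gap to its nearest neighbour, against about 1 in 20 groups by chance. It was chow rat 7 for Aldh1a2, at 2.93 FPKM, with the next chow rat at 1.43 FPKM and a gap of 0.648 of the range.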

How the results depend on the processing

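No paired analysis was possible because replicate numbers name rats in accession order and the labels pair no rats across diets. Of the counts of members higher on fructose (9 in all, 2 fibrillar, 0 type IV, 2 other collagens and 5 non-collagen), none kept its value in every setting except that of type IV, which was 0 in every fit. With no filter on low values the 9 came to 5, the other collagens to 1 and the non-collagen members to 2. Array weights gave 4 fibrillar collagens, a pseudocount of 0.1 gave 1 other collagen, and quantile normalization gave 3 non-collagen members. By the exact permutation test all these counts were 0, as no gene of the whole table reached an adjusted permutation p below 0.0663. With 1 rat left out, the total ranged from 2 to 9, fibrillar collagens from 1 to 3, other collagens from 1 to 2, non-collagen members from 0 to 5, type IV collagens stayed at 0, and members lower on fructose from 0 to 2, the 2 being Col4a3 and Col4a4 without chow rat 1. Over the fits with 1 rat left out, the share of all genes called higher ranged from 0.490% to 2.47%. The median log2 fold change of the members ranged from 0.31 to 0.38 with 1 rat left out and from 0.34 to 0.37 otherwise. No member's fold change reversed its sign in any setting, and the scalings moved the median of all genes by less than 0.1. The cause of the lost calls was not tested.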
